A study of Mus musculus with 2 samples.

Results

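The most crowded megabases of a CTCF map from mouse T cell precursors were described here. Chromatin came from CD4-CD8- (double-negative, DN) thymocytes of Rag1 -/- mice on the C57BL/6 background, aged 4 to 8 weeks, and was precipitated with an antibody against CTCF. The labels also list an input control from the same kind of cells, which was not analysed here. The number of animals behind each library is not stated. Loss of Rag1, which the cells behind both libraries share, prevents V(D)J recombination and holds thymocytes at the DN stage, so these values describe a recombinase-deficient precursor and not a whole normal thymus. The surface phenotype could not be checked, since the track holds CTCF positions only. There was 1 CTCF library and no replicate.

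Neighbouring 25-bp bins of the authors' peak track were joined into regions, and the centre of each region was assigned to a 1-Mb window of the mm9 genome that starts at a whole Mb. Windows of chromosomes 1 to 19 with 80 or more regions were kept, other than those at 52 to 56 Mb on chromosome 14 and 33 to 38 Mb on chromosome 17. The rule left 20 windows with 1758 regions, of 52254 on the autosomes and 53551 in the whole map. The windows were chosen by their region count, so that count is given as a description. Of 2421 autosomal windows, 23 reached 80 before those 2 spans were left out (0.95%). The windows kept made up 0.826% of autosomal windows and held 3.36% of autosomal regions.

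CTCF is a zinc-finger protein that binds an oriented DNA motif, halts loop extrusion by cohesin and thereby sets the anchors of many chromatin loops and domain boundaries. Many of its sites lie at or near promoters, and gene-rich parts of mammalian genomes carry more of them than gene deserts do. In DN thymocytes it is best known for its sites in the antigen receptor loci, none of which was counted here. The track has neither heights nor scores, so a region is present or absent, its strength is unknown and sites under the authors' threshold cannot be seen.

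The crowded windows lay on 9 of 19 autosomes on the grid used. Chromosomes 7, 10, 11 and 17 had 3 each, chromosomes 2, 4 and 5 had 2 each, and chromosomes 3 and 9 had 1 each. Of the 9 chromosomes denser than the autosomal mean, 7 held a crowded window, and of the 10 below it, 2 did. Chromosome density comes from the same region counts that the rule used and includes the crowded windows. The 2 are thus tied by construction, and this is no finding of its own. Chromosome 19 held 27.5 regions per Mb and no crowded window, its highest count being 74, whereas chromosome 3 held 16.3 per Mb and a window of 89. The counts ran from 80 to 110, with a median of 85.5, against a mean of 21.7 regions per Mb over the autosomes and a median of 17 per window. At the threshold, the windows just inside held 80 (chromosome 2 at 32 to 33 Mb, chromosome 5 at 115 to 116 Mb and chromosome 17 at 47 to 48 Mb). Those just outside held 79 (chromosome 5 at 125 to 126 Mb and at 149 to 150 Mb) and 78 (chromosome 4 at 151 to 152 Mb). The exact 95% Poisson interval of a count of 80 runs from 63.4 to 99.6, which takes in all of these. Such intervals cover counting error only.

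**Figure D1:**
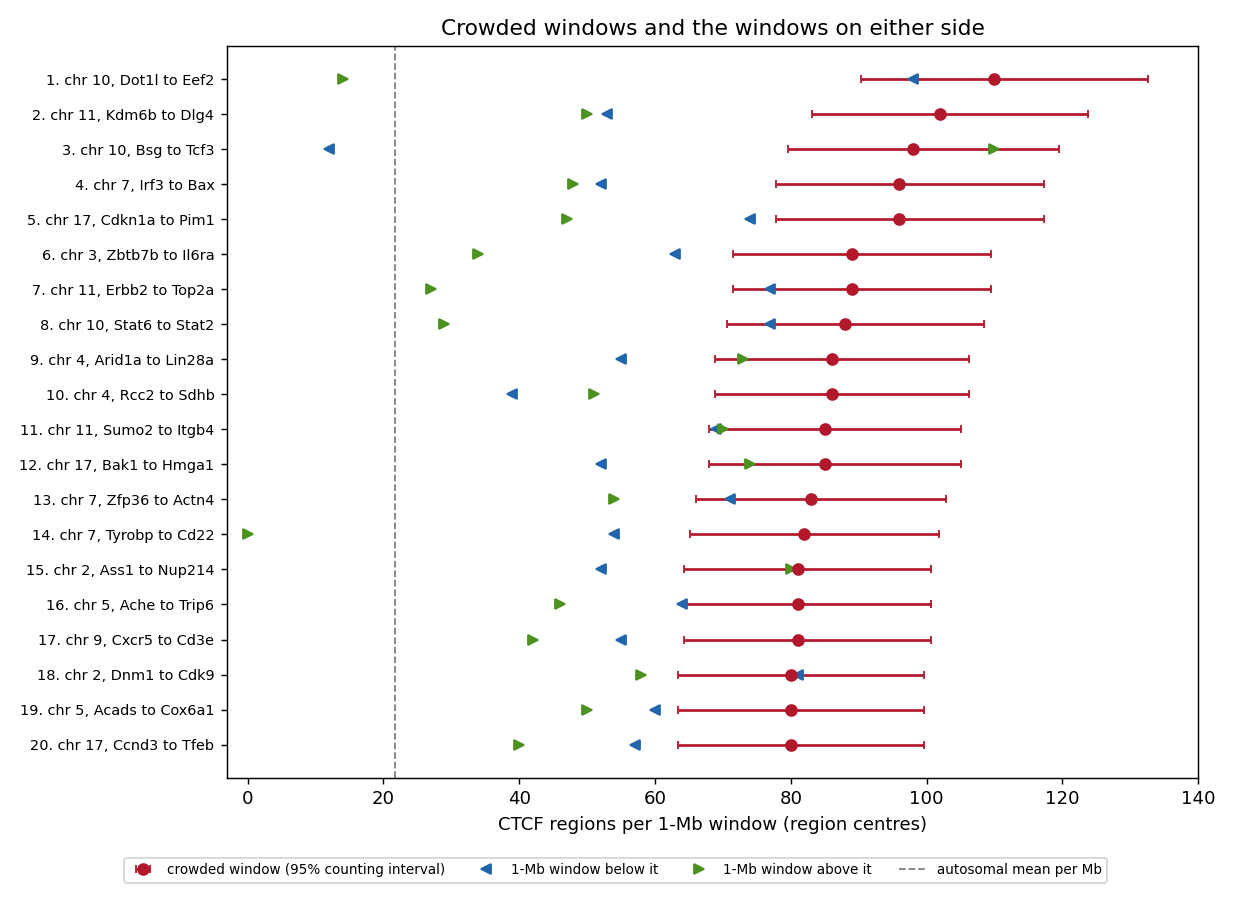
CTCF regions per 1-Mb window (horizontal axis) for the 20 crowded windows in order of their count, each with its exact 95% Poisson interval, and for the windows just below and just above it. Row labels give the chromosome and a pair of genes known to lie in the window; the windows stand at 80 to 110 regions, and their neighbours range from 0 to 110 around the dashed autosomal mean of 21.7.

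Genes are named below as background, from general knowledge of the mm9 map, because no mm9 annotation was used. Where genes are counted between a pair of named genes, the order is that of the RefSeq GRCm38 table, and both named genes are included in the count. The count covers only the part of a window between them. Over the 20 windows it ranged from 4 to 49 protein-coding genes, with a median of 15.

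The densest block lay on chromosome 10, where a pair of crowded windows adjoined. The window at 80 to 81 Mb held 110 regions (exact 95% Poisson interval 90.4 to 132.6), 5.07 times the autosomal mean. The window at 79 to 80 Mb held 98 (79.6 to 119.4). The lower window carries Bsg, which encodes basigin, Stk11, a kinase that activates AMPK, Gpx4, which protects lipids from peroxidation, and Tcf3, which encodes the E proteins E12 and E47 that drive early lymphocyte development. From Bsg to Tcf3 the gene order holds 49 protein-coding genes. The upper window carries Dot1l, the histone H3 lysine 79 methyltransferase, Gadd45b, a stress-response gene, Map2k2, a kinase of the ERK pathway, and Eef2, a translation elongation factor, with 23 genes from Dot1l to Eef2. In 100-kb bins from the low end, the lower window held 4, 14, 20, 9, 12, 6, 9, 5, 12 and 7 regions. The upper window held 14, 7, 13, 6, 15, 7, 11, 9, 11 and 17. The bin at 79.2 to 79.3 Mb, with 20 regions, was the fullest of all bins in the crowded windows. Regions covered 4.98% of the upper window and 4.59% of the lower one, against 2.84 to 3.94% in the other crowded windows.

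Both ends of this block were abrupt. Its lower neighbour at 78 to 79 Mb held 12 regions and its upper neighbour at 81 to 82 Mb held 14, both below the autosomal mean. Here and below, an edge was sought in 100-kb steps within 0.5 Mb of a window's end. It was placed where the inner 300 kb exceeded the outer 300 kb by most, a choice that favours steep contrasts. At 79.1 Mb, the 300 kb inside the block held 43 regions and the 300 kb outside held 8. At 81.1 Mb, the inner 300 kb held 38 regions and the outer 300 kb held 1, the largest such drop at any edge of a crowded window. A gap of 360.5 kb without a region followed, from 81106903 to 81467402. Beyond the low end, the gene order passes 10 genes below Bsg and then enters a run of 20 in which 14 are olfactory or vomeronasal receptor genes (Vmn2r83 to Olfr1358). These encode odour and pheromone receptors of sensory neurons. Beyond the high end, 32 genes above Eef2, a run of 13 genes holds 4 with zinc finger symbols (Zfp433 to Zfp938). Their mm9 positions relative to the edges were not measured. Here and below, gene families are named beyond some edges only. None is given for other steep edges, such as those at 88.9 Mb on chromosome 3 (40 regions inside, 10 outside) and 43.7 Mb on chromosome 9 (33 and 6). Whether density breaks off at such families was not tested.

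**Figure D2:**
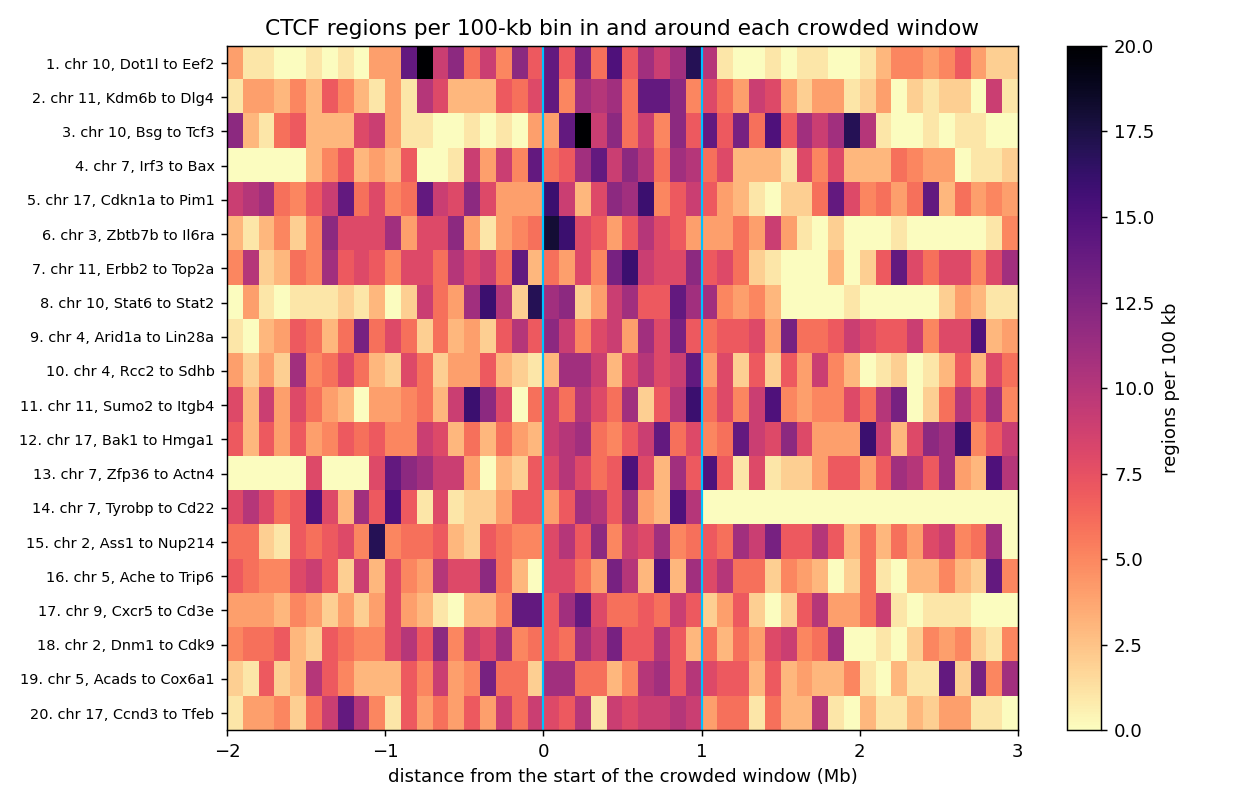
CTCF regions per 100-kb bin (colour) from 2 Mb below to 2 Mb above each crowded window, by distance from the window's start, with blue lines at its ends. The chromosome 10 rows break off sharply on the outer side of the pair, and the row for Tyrobp to Cd22 on chromosome 7 has 0 regions above the window.

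On chromosome 11 the window at 69 to 70 Mb held 102 regions (83.2 to 123.8). It carries Kdm6b, a histone H3 lysine 27 demethylase, Trp53, the p53 tumour suppressor, Polr2a, the largest subunit of RNA polymerase II, and Dlg4, a scaffold of neuronal synapses. The gene order holds 47 protein-coding genes from Kdm6b to Dlg4. Its bins held 14, 5, 11, 10, 11, 6, 14, 14, 12 and 5 regions. Regions were spread through the window, and its longest gap was 81.2 kb. The neighbours held 53 regions below and 50 above, so density fell to about the same level on both sides. The second window on this chromosome, at 98 to 99 Mb, held 89 regions. It carries the receptor kinase gene Erbb2, Ikzf3, which encodes the lymphoid transcription factor Aiolos, the nuclear receptor genes Thra and Rara, and Top2a, a topoisomerase of dividing cells. Below it stood 77 regions and above it 27. A gap of 430.1 kb, from 99435946 to 99865995, opened 436 kb above the window, and the window at 100 to 101 Mb again held 77. In gene order, 4 genes separate Top2a from a run of 65 that holds 50 keratin and keratin-associated protein genes, which encode filament and hair proteins of epithelia. The last window there, at 115 to 116 Mb, held 85 regions, with 69 below and 70 above. It carries Sumo2, the adaptor gene Grb2 and the integrin gene Itgb4.

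On chromosome 7 a crowded window bordered on an empty one. The window at 31 to 32 Mb held 82 regions and the next held 0. The last region ended at 31962679 and a gap of 2440.2 kb followed, up to 34402904. The 300 kb below 32 Mb held 28 regions, 15 of them in the bin at 31.8 to 31.9 Mb and 10 in the last bin. Whether reads could be mapped in the empty stretch is not recorded in the track. This window carries Tyrobp, an adaptor with an activating motif used by natural killer and myeloid receptors, Kmt2b, a histone H3 lysine 4 methyltransferase, and Cd22, an inhibitory receptor of B cells. The gene order holds 32 genes from Tyrobp to Cd22. Beyond Cd22 it passes 14 genes, to Gramd1a, and then reaches an unbroken run of 35 secretoglobin genes (Scgb2b1 to Scgb1b30), which encode small secreted proteins. Close by, the window at 29 to 30 Mb held 83 regions and carries Zfp36, an RNA-binding regulator of cytokine messages, Nfkbib, an inhibitor of NF-kappaB, and Actn4, an actin cross-linker. The window between them held 54.

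The third window of chromosome 7, at 52 to 53 Mb, held 96 regions (77.8 to 117.2), with 52 below and 48 above. It carries Irf3, a transcription factor of the interferon response, Flt3l, the ligand of a receptor on early haematopoietic progenitors, and Bax, which permeabilises mitochondria in cell death. Between Irf3 and Bax the gene order holds 34 genes. Its bins were among the most even, with 6, 7, 11, 14, 9, 12, 10, 6, 11 and 10 regions. Below it, at 51.5 Mb, 22 regions lay in the inner 300 kb and 1 in the outer, where a gap of 312.3 kb fell (51184330 to 51496604). Density did not begin at that point, since the 100-kb bins leading up to the gap held 3, 5, 7, 3, 4, 3 and 7 regions.

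Crowding on chromosome 17 extended over several megabases. The window at 29 to 30 Mb held 96 regions, that at 27 to 28 Mb held 85, and the one between them held 74. The first carries Cdkn1a, which encodes the cell cycle inhibitor p21, and Pim1, a kinase induced by cytokine signals. The second carries Bak1, a mitochondrial effector of apoptosis, and Hmga1, an architectural chromatin protein. Bins of the window with Cdkn1a held 16, 9, 3, 8, 12, 11, 16, 5, 7 and 9 regions, so it had separate concentrations near its start and beyond its middle. The window at 47 to 48 Mb held 80 regions, with 57 below and 40 above. It carries Ccnd3, the D-type cyclin of proliferating immature thymocytes, and Tfeb, a regulator of lysosomal genes. It also had the emptiest bin of any crowded window, with 1 region at 47.3 to 47.4 Mb, where an 83.8-kb gap (47284002 to 47367751) fell.

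On chromosome 9 the window at 44 to 45 Mb held 81 regions and carries Cd3g, Cd3d and Cd3e, which encode signalling chains of the T cell receptor complex, together with the chemokine receptor gene Cxcr5 and Kmt2a, a histone methyltransferase gene. Its neighbours held 55 below and 42 above, and its low edge lay outside the grid line, at 43.7 Mb, with 33 regions in the inner 300 kb and 6 in the outer. On chromosome 3 the window at 89 to 90 Mb held 89 regions and carries Zbtb7b, the transcription factor of CD4 lineage choice, Shc1, a signalling adaptor, Adar, an RNA-editing enzyme, and Il6ra, the interleukin 6 receptor. This window was front-loaded: its first 2 bins held 18 and 16 regions and its last held 4. It had 63 regions below and 34 above. On chromosome 10 the window at 127 to 128 Mb held 88 and carries Stat6 and Stat2, which transmit interleukin 4 and interferon signals. It had 77 regions below it and 29 above. At 128463578 a gap of 474.9 kb began. In gene order 36 genes separate Stat2 from a run of 59 in which 58 are olfactory receptor genes.

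The outer neighbours of the remaining windows held 39 regions or more. On chromosome 4 the window at 133 to 134 Mb (86 regions) carries Arid1a, a subunit of the BAF chromatin remodeller, and Lin28a, which blocks let-7 maturation, and it had 55 regions below and 73 above. The window at 140 to 141 Mb (86 regions) carries Rcc2, a cell division gene, Padi4, an enzyme that citrullinates histones, and Sdhb, a subunit of succinate dehydrogenase, and it had 39 below and 51 above. Its low edge was steep, with 31 regions in the 300 kb above 140.1 Mb and 6 in the 300 kb below. On chromosome 2 the adjoining windows at 31 to 32 Mb and 32 to 33 Mb held 81 and 80, with 52 and 58 on their outer sides. They carry Ass1 of the urea cycle, the tyrosine kinase gene Abl1 and the nuclear pore gene Nup214, and, in the upper one, the dynamin gene Dnm1, the endoglin gene Eng and Cdk9, a kinase that releases paused RNA polymerase II. On chromosome 5 the window at 137 to 138 Mb (81 regions) carries Ache, which encodes acetylcholinesterase, and Trip6, which encodes a LIM-domain protein of focal adhesions. The one at 115 to 116 Mb (80 regions) carries Acads, an enzyme of short-chain fatty acid oxidation, and Cox6a1, a subunit of cytochrome c oxidase.

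Dense stretches mostly ran past the whole-Mb limits. Going outward from each window, the stretch was ended at the first 200 kb holding fewer regions than the autosomal mean for that length, 4.34. The 20 windows then lay in 17 distinct stretches, whose length had a median of 3.1 Mb taken over windows, or 1.95 Mb when the same rule was applied in 50-kb bins. The shortest, 1.3 Mb with 100 regions, held Tyrobp and Cd22 on chromosome 7 (30.7 to 32 Mb). The longest, 8.5 Mb with 543 regions, surrounded Arid1a on chromosome 4 (131.3 to 139.8 Mb). The chromosome 10 block measured 2.1 Mb (79 to 81.1 Mb) and held 218 regions, or 103.8 per Mb, against 60.5 to 85.5 per Mb in the other stretches. Taking the lower and upper neighbour of each window gave 40 neighbours, of which 4 were themselves crowded. Of the 40, 31 held at least 2 times the autosomal mean. The windows at 28 to 29 Mb on chromosome 17 and 30 to 31 Mb on chromosome 7 each lay between 2 crowded windows. Each is counted 2 times among the 31. A further 3 lay at or below the mean, namely the outer pair beside the chromosome 10 block and the empty window on chromosome 7. Averaged over the 20 windows, 100-kb bins held 8.79 regions inside, 6.08 in the megabase below and 4.99 in the megabase above. In the next megabase out they held 4.83 below and 4.12 above, still over the autosomal mean of 2.17. Some crowded windows are themselves flanks of others, at either distance, and they raise these flank averages. Because windows were picked for high counts, lower counts beside them follow in part from the choice.

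Inside the windows, regions lay a few kilobases apart. The median gap between neighbouring regions was 5.67 kb (order-statistic 95% interval 5.0 to 6.28 kb, 1738 gaps), with quartiles of 1.21 and 15.2 kb. It was 8.8 kb (8.55 to 9.07 kb, 19354 gaps) in the 370 windows of 40 to 79 regions and 13.6 kb in all other autosomal windows. A count of 80 or more fixes a short mean gap, so this is no finding of its own. Relative to the mean gap, the median was 0.527 in crowded windows and 0.506 in windows of 40 to 79 regions. That ratio was 0.522 in windows of 70 to 79 regions alone and 0.399 in all other autosomal windows. Among the crowded windows the median gap ran from 4.03 kb at 79 to 80 Mb on chromosome 10 to 8.76 kb at 27 to 28 Mb on chromosome 17. The share of gaps over 1 kb and no longer than 10 kb was 39.3% (exact 95% interval 37.0 to 41.6%) inside crowded windows and 33.7% (33.04 to 34.37%) in windows of 40 to 79 regions. In the windows of 70 to 79 regions alone that share was 39.4% (37.6 to 41.3%), about the same as in crowded windows. Gaps of up to 200 bp, which may part pieces of 1 site, made up 14.8% (13.2 to 16.6%) in crowded windows and 12.6% (12.2 to 13.1%) in windows of 40 to 79. In windows of 70 to 79 regions they made up 13.0% (11.7 to 14.3%), an interval that overlaps that of the crowded windows. Counting each such group once left 67 to 91 regions per crowded window.

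**Figure D3:**
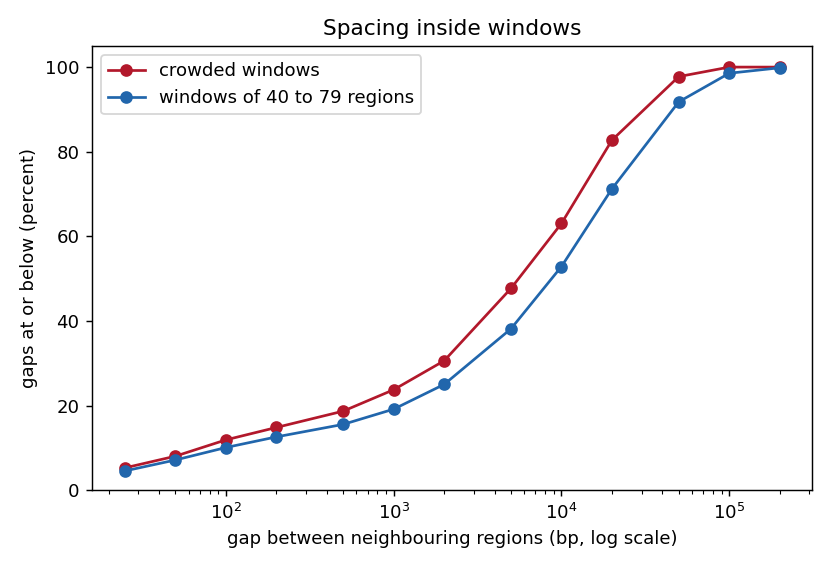
Cumulative percent of gaps between neighbouring CTCF regions (vertical axis) at or below a given length in bp (log scale) for the crowded windows and for windows of 40 to 79 regions. In crowded windows 63.1% of gaps were 10 kb or shorter, against 52.9% in windows of 40 to 79 regions. Windows of 70 to 79 regions are not drawn on their own.

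No crowded window had a long empty interval. The longest gap in each ran from 49.3 kb, on chromosome 17 at 27 to 28 Mb, to 85.8 kb, on chromosome 4 from 133227536 to 133313335. Of all gaps in crowded windows 39 (2.24%) exceeded 50 kb, against 3.74% in windows of 70 to 79 regions and 8.22% in windows of 40 to 79 regions. None of the 200 bins of 100 kb was empty, 21 held 4 regions or fewer and 79 held 10 or more. In the 37 windows of 70 to 79 regions, 9 of 370 bins were empty, and these fell in 8 windows. The variance of bin counts over their mean had a median of 1.29 over crowded windows and 2.33 over windows of 70 to 79 regions. That median was lower, at 1.89, over windows of 40 to 79 regions and 1.63 over all other autosomal windows. The size of the contrast thus depends on the group set beside the crowded windows. Among the crowded windows the ratio ran from 0.722 for Irf3 to Bax on chromosome 7 to 2.43 for Zbtb7b to Il6ra on chromosome 3. A count of 80 or more by itself makes long gaps and empty bins rare, so their scarcity is no finding of its own. These values describe the map, and no test was made of them.

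In each window the shortest span with 10 regions was measured, which a high count itself makes short. It was lowest, at 15.8 kb, in the window of Stat6 and Stat2 on chromosome 10 (127799528 to 127815302). Its regions measured 550, 150, 225, 25, 175, 125, 250, 100, 750 and 500 bp in order. Gaps between them ran from 25 to 7525 bp, and 4 were no longer than 200 bp, so the group may hold fewer separate sites. The next spanned 16.8 kb on chromosome 5 (137718771 to 137735595), with 4 regions of 100 bp or less and 4 of 500 bp or more. On chromosome 3, 10 regions within 17.8 kb (89103419 to 89121218) included 6 of 100 bp or less. The last 7 measured 650, 25, 50, 100, 25, 25 and 650 bp and lay 25 to 125 bp apart. By contrast, the shortest such span between 79 and 80 Mb on chromosome 10 (79235228 to 79256577, 21.4 kb) had 5 regions of 500 bp or more and 1 gap of 200 bp or less. On chromosome 5 between 115053946 and 115089795 (35.9 kb), 9 of 10 regions were 500 bp or wider. Over the 20 spans, 1 from each window, 27% of 200 regions were 100 bp or narrower (exact 95% interval 21.0 to 33.7%), and 42% (35.1 to 49.2%) were 500 bp or wider. Picking the shortest span itself favours narrow regions with short gaps, so these shares describe the spans picked. Close pieces may belong to 1 site, and the intervals treat them as independent.

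Region width in the crowded windows was close to that elsewhere, except that regions over 700 bp were more frequent. Regions of 500 bp or more made up 48.1% (exact 95% interval 45.7 to 50.4%, 845 of 1758) in crowded windows, and 46.7% (46.3 to 47.2%) over all other autosomal windows. They made up 49.6% (47.7 to 51.5%) in windows of 70 to 79 regions and 48.3% (47.6 to 49.0%) in windows of 40 to 79. Regions of 100 bp or less made up 22.1% (20.2 to 24.1%) in crowded windows and 22.4% (22.0 to 22.7%) over all other autosomal windows. Mean width was 398.7 bp in crowded windows and 385.5 bp in the others. Regions over 700 bp made up 5.01% (88 regions) in crowded windows, against 3.34% in the others, and the widest, 1400 bp, stood on chromosome 10 from 80679903 to 80681302. Single windows differed more. The share of regions of 500 bp or more was 60.2% (49.8 to 69.96%) for Bsg to Tcf3 on chromosome 10 and 56.5% (45.3 to 67.2%) for Sumo2 to Itgb4 on chromosome 11. It was 37.0% (26.6 to 48.5%) for Ass1 to Nup214 on chromosome 2 and 38.2% (28.1 to 49.1%) for Zbtb7b to Il6ra on chromosome 3. Of the 20 intervals, 19 took in the value of all other windows, and that for Bsg to Tcf3 lay above it. The intervals were not adjusted for their number, and no test was made of single windows. Between neighbouring regions of 500 bp or more the median gap was 14.3 kb in crowded windows (825 gaps), against 20.3 kb in windows of 40 to 79 regions, as the higher counts of crowded windows at a similar share of wide regions require.

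**Figure D4:**
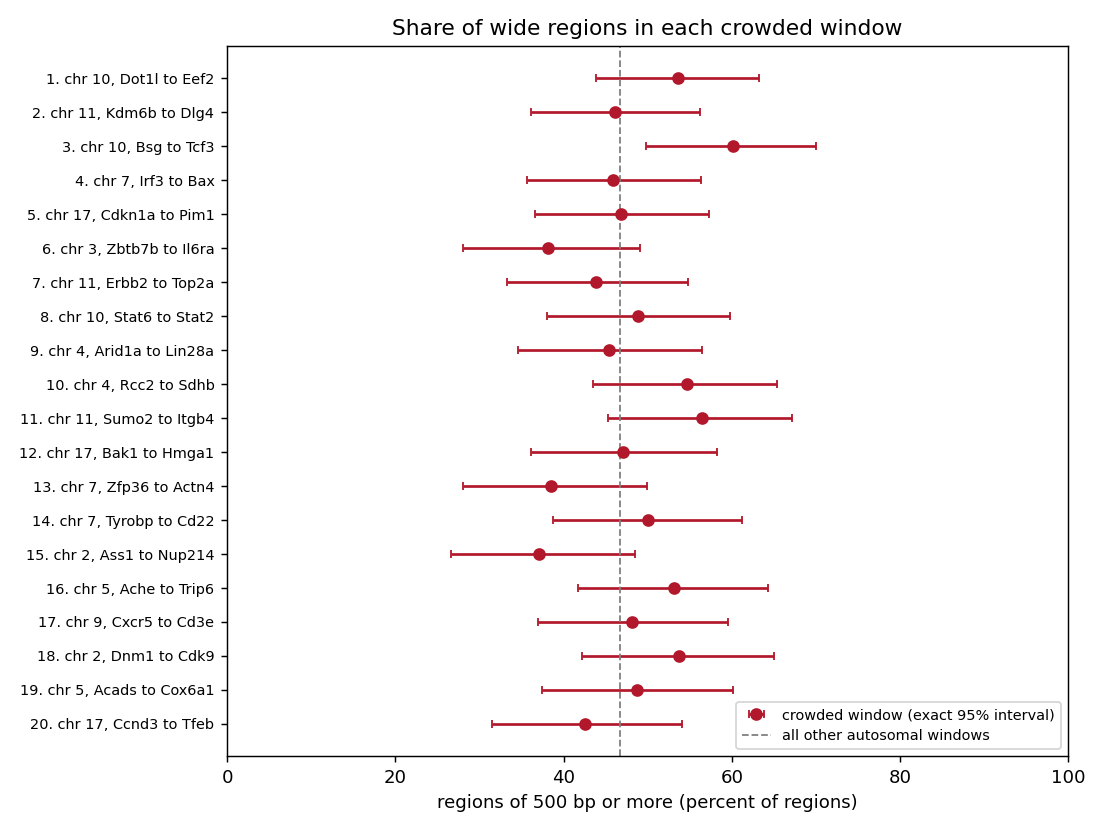
Percent of regions of 500 bp or more (horizontal axis) in each of the 20 crowded windows, with exact 95% binomial intervals, and in all other autosomal windows (dashed line, 46.7%). The windows range from 37.0 to 60.2%.

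How a window ranked depended on how pieces and narrow regions were counted. With regions within 200 bp joined, the 5 windows that held 96 or more still held 83 to 91, and the other 15 fell to 67 to 77. When narrower regions than the map's median width were left out, Bsg to Tcf3 held 66, Dot1l to Eef2 held 62 and Kdm6b to Dlg4 held 52. These ranked 2, 3 and 4 among all windows, the spans left out included. At the other end, Ass1 to Nup214 on chromosome 2 and Zfp36 to Actn4 on chromosome 7 each held 36 and ranked 81.

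The whole-Mb grid also decided which windows were counted. With windows moved by 0.5 Mb, 18 held 80 or more, and 8 of these touched none of the 20. On chromosome 7 the stretch from 19.5 to 20.5 Mb reached 113 regions, more than any window on the grid used. Others lay on chromosomes 8, 15 and 19, which had none before. A 1-Mb stretch moved in 100-kb steps reached 80 on 12 of 19 autosomes, and 14 of the 20 windows had a shifted position that overlapped it and had a higher count. For Cxcr5 to Cd3e, the highest count was 93, at 43.8 to 44.8 Mb.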

How the data were processed

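The authors deposited 1 browser track with chromosome, start and end of bins of 25 bp (0 exceptions), without scores, under a header that names the track. Bowtie and mm9 are listed in the submitters' processing notes. For the peak caller, threshold and use of the input, the answer is not given in the sources used here. Depth is unknown.

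Touching bins were joined, positions were converted to 1-based coordinates, and region centres were counted per window. Gaps were taken between neighbours in the same window. Binomial and Poisson 95% intervals are exact. Named genes follow a rule of windows: count, flanks and gaps for each, the fullest windows in detail, and at most 6 genes of known mm9 position. Gene order came from the GRCm38 table, with no conversion of coordinates, and no sequence was read, for want of an mm9 genome. Gene families beyond edges, spans of 10 regions and grid shifts were chosen after values were seen. Members and lists were chosen with earlier results of these data known. No p-value is given, since there was 1 library. The joining of bins and the counting of regions per window were tested on simulated data. The code for gaps, edges, stretches and spans was not. Tools were matplotlib 3.10.9, pandas 2.3.3, scipy 1.17.1, numpy 2.4.6 and Python 3.11.15. Some items are not reported here.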

Additional observations from a re-analysis of the deposited data

How the results depend on the processing

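For 8 results 46 alternative values were computed. Of these 12 stayed in the 95% interval of the result or, for counts, within 1.5 times it, and 34 moved. Counts, gaps and shares have no direction to change. The 20 windows became 5 with regions joined within 200 bp, 2 joined within 1000 bp, 2 without regions of 100 bp or less, 0 with regions at or above the median width only, 57 at 70 regions or more and 5 at 90 or more. Their 1758 regions became 431, 165, 169, 0, 4470 and 502 in the same order. Fewer regions to count makes fewer windows pass by construction. The median gap of 5.67 kb became 6.65 kb joined within 200 bp, 7.78 kb within 1000 bp, 7.62 kb without narrow regions and 4.35 kb at 90 or more. The share of regions of 500 bp or more, 48.1%, became 59.6%, 68.5% and 69.8% under the same joinings and without narrow regions, 50.6% (50.598) at 90 or more and 50.6% (50.599) with windows 0.5 Mb later. The median covered share of a window, 3.37%, became 4.02%, 5.32%, 4.67%, 3.15% at 70 or more and 3.94% at 90 or more. Gaps of 1 to 10 kb, 39.3%, became 62.6% joined within 1000 bp. With the same 20 windows, an alternative added after seeing the data, joining within 200 bp gave a median gap of 8.19 kb, 57.3% wide regions and 46.1% gaps of 1 to 10 kb. Joining within 1000 bp gave 9.62 kb, 61.4%, 51.5% and a covered share of 3.88%. Where fewer or longer regions do not account for a shift by construction, the cause was not tested. The median stretch of 3.1 Mb (order-statistic 95% interval 1.9 to 4.5 Mb) was 1.95 Mb with 50-kb bins and 3.65 Mb when 3 bins in a row had to lie below the mean. That interval treats the 20 windows as independent, although they lay in 17 distinct stretches, so a shared stretch enters it more than once. Assigning regions by their start kept 20 windows and 1758 regions. No paired analysis was possible because the CTCF map has 1 library only.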
